A study of Mus musculus with 5 samples.

Results

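Transcript levels of 10 genes of the megakaryocyte and platelet programme (Vwf, Itga2b, Itgb3, Pf4, Gp1bb, Gp9, Selp, Clu, F2r and Treml1) were examined in sorted haematopoietic stem cells (HSCs), as the rows of the deposited expression table that carry these gene names. They were 10 of 55335 genes in the table, and each name matched a single row. RNA was measured in 5 libraries, 3 from wild-type mice and 2 from mice labelled RankCre-ki. HSCs were sorted from bone marrow of mice at 3 weeks of age as lineage-negative cells with Kit, Sca-1 and CD150 and without CD48. Library names end in numbers between 80 and 90, taken as numbers of sorted cells. RankCre-ki mice carry Cre recombinase knocked into 1 allele of Rank (Tnfrsf11a), with 1 floxed and 1 null allele of Csf1r (Rank cre/+; Csf1r fl/-), and wild-type mice are labelled as such. The study describes Rank-driven Cre as restricted, among immune cells, to embryonic macrophages, and the animals as lacking these cells and osteoclasts, with abnormally dense bone. All libraries are labelled C57BL/6J, whereas the methods keep the Csf1r null line on C3H/HeJ, so the groups may differ in strain background as well as in these alleles. The study asked how HSCs differ molecularly when they mature in bone marrow without embryonic macrophages, and the comparison here is RankCre-ki against wild-type for each gene.

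A fraction of HSCs carries transcripts of the platelet lineage before any commitment is visible, a state called platelet priming or platelet bias, and Vwf is its best known marker in the mouse. Megakaryocytes, the bone marrow cells that shed platelets, use the same genes at far higher levels for the adhesion receptors on the platelet surface and for the cargo of platelet granules. Transcription factors of the GATA, ETS and RUNX families act both in HSCs and in megakaryocytes.

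The values are TPM, which scale the length-corrected transcripts of each library to a total of 1000000, so levels of different genes can be set side by side. Below, values of a group are in the order of its replicates. RankCre-ki replicate 2 is labelled female, but its summed level of Y-linked Ddx3y, Eif2s3y, Kdm5d and Uty was 105 TPM and its Xist was 0.0229 TPM. Wild-type replicate 1, labelled male, had 76.1 and 0.0273 TPM, while the other libraries, labelled female, had at most 0.796 TPM of the Y-linked genes and at least 5.16 TPM of Xist. The same pair of libraries forms series 1 of the library names, and the other 3 form series 2, so name series and the sex-linked transcripts cannot be told apart. Csf1r was at 2.39, 0 and 0.234 TPM in wild-type HSCs, against 17.5 and 6.46 TPM in those labelled RankCre-ki, and the allele a transcript came from is not visible in these values. Tnfrsf11a was at most 2.08 TPM in any library. Genes at 1 TPM or more numbered 10792, 9021 and 11084 in wild-type HSCs and 12801 and 16386 in the RankCre-ki libraries. The share of TPM from the mitochondrial genome was 14.7%, 21.02% and 16.7% in wild-type HSCs, against 10.7% and 8.21% in RankCre-ki HSCs, and that of the top 10 genes was 18.1%, 27.4% and 20.4% against 12.6% and 12.2%. These 3 measures separated the groups without overlap. In such pools, a smaller share of cells with a transcript and less of it per cell cannot be told apart. The labels do not say whether libraries came from separate animals, so p-values measure the spread between these libraries, which may be technical.

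The 10 genes were unevenly detected. Vwf, Pf4, Gp9 and F2r were at 1 TPM or more in all 5 libraries, Itga2b in 3, Gp1bb, Selp and Treml1 in 2, and Itgb3 and Clu in 1. Counted by library, 6, 5 and 6 of the 10 reached 1 TPM in wild-type HSCs, against 8 and 6 in the RankCre-ki libraries. Their summed level was 246, 93.7 and 112 TPM in the wild-type libraries, a mean of 151 ± 83.3 TPM (SD, n = 3), and 236 and 200 TPM in RankCre-ki HSCs, a mean of 218 ± 25.1 TPM (SD, n = 2). Wild-type replicate 1 had the highest sum and both other wild-type libraries the lowest, so the groups overlap. Pf4 alone made up between 28.4% and 69.5% of this sum.

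**Figure D1:**
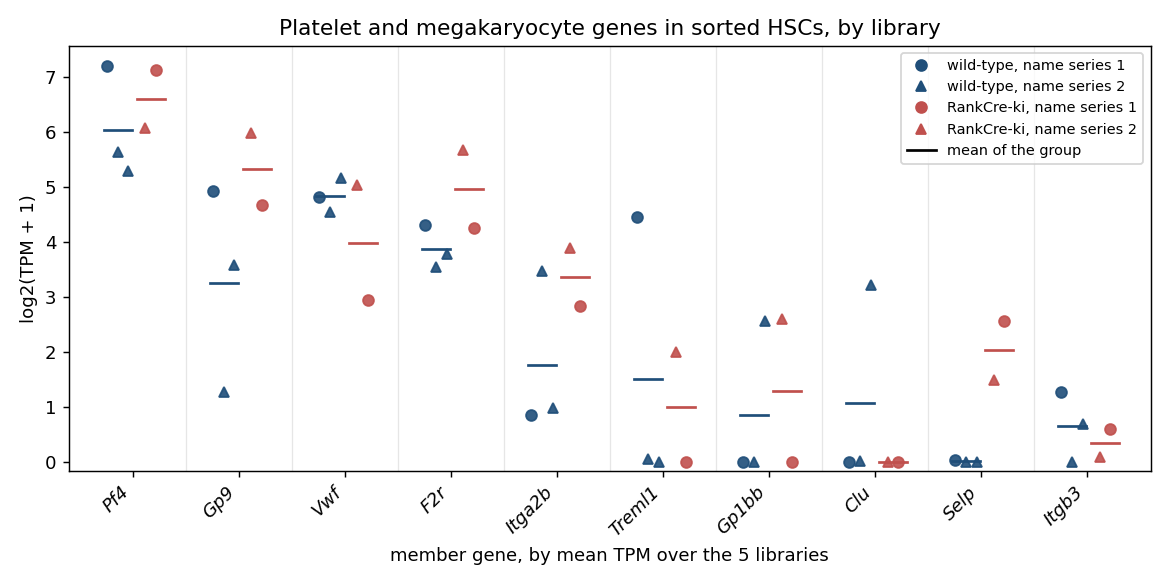
Level of each of the 10 genes in each library, as log2(TPM + 1), with genes ordered by their mean TPM over the 5 libraries. Blue symbols are the 3 wild-type and red symbols the 2 RankCre-ki libraries, circles belong to name series 1 and triangles to name series 2, and short lines are group means on the log2 scale. The groups overlap for every gene except Selp, whose RankCre-ki libraries lie above all wild-type libraries.

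Ranked by mean TPM over the 5 libraries, Pf4 came first at 88.1 ± 51.4 TPM (SD, n = 5) and was above the next gene in all 5 libraries. Gp9, Vwf and F2r followed at 25.9 ± 23.3, 24.6 ± 11.0 and 22.2 ± 16.2 TPM, and their order was not stable: Gp9 exceeded Vwf in 3 libraries and Vwf exceeded F2r in 3. F2r was above Itga2b, at 6.39 ± 5.70 TPM, in all 5 libraries. The lower genes, Treml1 at 4.84 ± 9.20, Gp1bb at 2.01 ± 2.75, Clu at 1.68 ± 3.75, Selp at 1.36 ± 2.15 and Itgb3 at 0.525 ± 0.569 TPM, differed from their neighbours by less than the larger SD of each pair. Among the 13981 genes tested between the groups, Pf4 lay between percentiles 75.9 and 94.1 of its library's levels. Vwf lay between percentiles 70.4 and 76.1 in 4 libraries and at percentile 39.4 in RankCre-ki replicate 2.

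The sequences just before the start sites of 4 of the genes are shown because Gata2 and the ETS factor Fli1, described further below, had both RankCre-ki libraries above the wild-type range, although neither passed the test. RefSeq promoter sequences (build GRCm38.p6) matched 7 of the 10 genes, and Vwf, Itgb3 and Clu were missing. The 250 bases before the start were searched on both strands for GATAA, a core that GATA factors read, and for GGAAG, an ETS core. Matches stand in capitals, and other forms of these cores were not searched. No base belonged to both motifs, and the motifs were chosen after expression values had been seen. The windows of Gp9 (chr6:87777820-87778069, plus strand), Pf4 (chr5:90772185-90772434, plus strand), Itga2b (chr11:102469884-102470133, minus strand) and Selp (chr1:164115014-164115263, plus strand) read 5′ to 3′ as follows.
Gp9: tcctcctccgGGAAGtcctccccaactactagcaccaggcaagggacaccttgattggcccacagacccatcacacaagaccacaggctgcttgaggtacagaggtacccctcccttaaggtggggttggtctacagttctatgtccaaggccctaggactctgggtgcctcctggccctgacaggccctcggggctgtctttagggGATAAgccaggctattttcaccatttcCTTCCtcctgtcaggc
Pf4: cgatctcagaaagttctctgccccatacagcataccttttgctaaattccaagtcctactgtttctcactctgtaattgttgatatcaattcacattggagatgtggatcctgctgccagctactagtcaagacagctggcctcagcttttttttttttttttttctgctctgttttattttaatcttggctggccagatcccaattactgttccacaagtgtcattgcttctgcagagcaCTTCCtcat
Itga2b: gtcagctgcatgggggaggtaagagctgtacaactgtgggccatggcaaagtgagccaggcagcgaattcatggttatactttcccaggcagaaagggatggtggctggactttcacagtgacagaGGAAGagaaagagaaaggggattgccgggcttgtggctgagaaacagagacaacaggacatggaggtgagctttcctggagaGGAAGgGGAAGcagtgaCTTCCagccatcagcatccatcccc
Selp: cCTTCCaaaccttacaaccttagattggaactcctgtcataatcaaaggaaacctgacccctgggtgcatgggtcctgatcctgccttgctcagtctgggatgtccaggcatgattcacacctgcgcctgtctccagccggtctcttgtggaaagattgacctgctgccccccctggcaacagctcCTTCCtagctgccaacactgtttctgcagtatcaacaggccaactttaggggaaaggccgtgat
Gp9 had a GATAA match 43 to 39 bases before its start and 2 ETS matches, of which the nearer lay 16 to 12 bases before it. Pf4 had a single ETS match 9 to 5 bases before its start, and Itga2b had 4, of which the nearest lay 25 to 21 bases before the start. Selp had 2, and its nearer one lay 64 to 60 bases before the start. The GATAA motif was present in 1 of the 7 windows, that of Gp9, and in 22.6% of 32851 promoter windows of the same length. GGAAG was present in 6 of the 7, all but F2r, and in 64.1% of all windows. Both together were present in Gp9 alone and in 13.2% of all windows. The Itga2b window lies almost wholly within the gene bounds of GENCODE M21, which include a noncoding transcript with an earlier start. These matches describe letters and are not evidence of binding.

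Gp9 and Gp1bb encode subunits of the glycoprotein Ib-IX-V complex, the platelet receptor for von Willebrand factor. Gp9 (ENSMUSG00000030054, chromosome 6, 87778072 to 87779768, 2 exons in its longest coding transcript, GRCm38 as for all positions here) was at 29.4, 1.42 and 11.1 TPM in wild-type HSCs, against 62.6 and 24.8 TPM in RankCre-ki HSCs. RankCre-ki replicate 1 was the highest and wild-type replicate 2 the lowest, but RankCre-ki replicate 2 fell below wild-type replicate 1. The difference, RankCre-ki minus wild-type on the log2(TPM + 1) scale that is used for all fold changes here and that understates changes of low genes, was 2.07 ± 1.22 (SE), with an adjusted p of 0.881 by limma over all tested genes. Gp1bb (ENSMUSG00000050761, chromosome 16, 18620317 to 18622403) was listed at 0, 0 and 4.94 TPM in wild-type HSCs, against 5.10 and 0 TPM in RankCre-ki HSCs. It was thus detected in a single library of each group, and the log2 fold change was 0.45 ± 1.15 (SE, limma adjusted p = 0.992), or −0.86 without RankCre-ki replicate 1. The exons of Gp1bb overlap those of Sept5 and Gm49601 on the same strand, so its level is uncertain, although both of these were at most 0.109 TPM in every library.

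The other subunits of this complex were Gp1ba, its von Willebrand factor binding chain, and Gp5. Gp1ba was listed at 0 in every wild-type library, against 0.0591 and 0.380 TPM in RankCre-ki HSCs. Gp5 was listed at 0, 0 and 3.38 TPM in wild-type HSCs, against 9.52 and 4.48 TPM in RankCre-ki HSCs, which lay above, with a log2 fold change of 2.21 ± 1.15 (SE, limma adjusted p = 0.864). Of the 4 subunits, 1, 1 and 3 reached 1 TPM in wild-type HSCs, against 3 and 2 in the RankCre-ki libraries. No library had all 4 at that level.

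Itga2b and Itgb3 encode the chains of integrin alphaIIb-beta3, the fibrinogen receptor, and the alpha chain (CD41) also marks early haematopoietic cells. Itga2b (ENSMUSG00000034664, chromosome 11, 102453297 to 102470122, 30 exons) was at 0.820, 10.1 and 0.988 TPM in wild-type HSCs, against 13.9 and 6.16 TPM in RankCre-ki HSCs. Both RankCre-ki libraries lay above wild-type replicates 1 and 3, and wild-type replicate 2 lay between them. The log2 fold change was 1.59 ± 1.40 (SE, limma adjusted p = 0.934), and Itga2b was higher within name series 1, by 1.98, and within name series 2, by 1.66. Gm23563, a short RNA gene within an Itga2b intron on the same strand, was at 4.60, 0 and 1.09 TPM in wild-type HSCs, against 12.1 and 5.01 TPM in RankCre-ki HSCs. The exons of these genes do not overlap. Whether any reads were shared between them is not visible in TPM. Itgb3 (ENSMUSG00000020689, chromosome 11, 104608000 to 104670476) was at 1.42, 0 and 0.615 TPM against 0.0695 and 0.520 TPM. It was too low to be tested, and in no library did both chains reach 1 TPM. Itgav, the other alpha chain that pairs with beta3, was at 7.20, 4.80 and 15.9 TPM in wild-type HSCs, against 8.81 and 12.1 TPM in RankCre-ki HSCs, which lay within the wild-type range.

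Vwf, Pf4 and Selp are genes of platelet alpha granules. Vwf (ENSMUSG00000001930, chromosome 6, 125546774 to 125686679, 52 exons), which encodes the adhesive protein von Willebrand factor, was at 27.2, 22.5 and 34.8 TPM in wild-type HSCs, against 31.8 and 6.72 TPM in RankCre-ki HSCs. Its wild-type libraries lay close together, with an SD on the log2 scale at percentile 9.63 of the tested genes, and RankCre-ki replicate 1 lay among them. RankCre-ki replicate 2, the library that goes against its sex label, was the lowest of all. The log2 fold change was −0.85 ± 0.89 (SE, limma adjusted p = 0.952), and it was 0.19 without that library and −1.90 without RankCre-ki replicate 1. Under median-ratio scaling or quantile normalization both RankCre-ki libraries lay below all wild-type libraries for Vwf.

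Pf4 (ENSMUSG00000029373, chromosome 5, 90772435 to 90773383, 3 exons), which encodes the chemokine platelet factor 4, was at 147, 48.9 and 38.4 TPM in wild-type HSCs, against 67.0 and 139 TPM in RankCre-ki HSCs. The highest wild-type and the highest RankCre-ki library were those of name series 1, and the groups overlapped. Its log2 fold change was 0.56 ± 0.72 (SE, limma adjusted p = 0.982), close to the median of 0.52 over all tested genes. Without wild-type replicate 1 it was 1.14, and without RankCre-ki replicate 2 it was 0.04.

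Selp (ENSMUSG00000026580, chromosome 1, 164115264 to 164150026, 16 exons), which encodes the adhesion molecule P-selectin, was at 0.0333, 0 and 0 TPM in wild-type HSCs, against 1.84 and 4.93 TPM in RankCre-ki HSCs. It was the only one of the 10 genes whose groups did not overlap. The log2 fold change of Selp was 2.02 ± 0.65 (SE), and limma gave a p of 0.0147, or 0.521 once adjusted. Selp reached 1 TPM in no wild-type library and passed the filter for testing through the RankCre-ki libraries alone, so this p lends the difference no support. It was higher within name series 1, by 2.52, and within name series 2, by 1.51. Without RankCre-ki replicate 2 the log2 fold change was 1.49 and the gene no longer passed the filter for testing. In the RankCre-ki libraries Selp stood at percentiles 20.9 and 32.5 of the tested genes, so it remained a low transcript. The numbers of genes at 1 TPM or more were also higher in both RankCre-ki libraries, and mitochondrially encoded genes and the highest genes held a smaller share of TPM there, as given above. The part of these measures in the result was not tested.

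Clu (ENSMUSG00000022037, chromosome 14, 65968483 to 65981547, 9 exons), which encodes the secreted chaperone clusterin and is a marker of platelet-biased HSCs, was listed at 0, 0.0220 and 8.38 TPM in wild-type HSCs, against 0 in both RankCre-ki libraries. Only wild-type replicate 3 held it above 1 TPM, and it could not be tested. Treml1 (ENSMUSG00000023993, chromosome 17, 48359916 to 48367176, 6 exons), which encodes a receptor of alpha granule membranes, was at 21.1, 0.0462 and 0 TPM in wild-type HSCs, against 3.04 and 0 TPM in RankCre-ki HSCs. It was high in a single library of each group and near 0 elsewhere, and the log2 fold change of −0.50 ± 1.52 (SE, limma adjusted p = 0.992) was 0.97 without wild-type replicate 1 and 0.50 without RankCre-ki replicate 2.

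F2r (ENSMUSG00000048376, chromosome 13, 95601803 to 95618487, 2 exons) encodes PAR1, a thrombin receptor. It was at 18.8, 10.7 and 12.8 TPM in wild-type HSCs, against 50.5 and 18.1 TPM in RankCre-ki HSCs. RankCre-ki replicate 1 was the highest, while RankCre-ki replicate 2 lay just below wild-type replicate 1, the library of its own name series. The log2 fold change was 1.09 ± 0.86 (SE, limma adjusted p = 0.916), or 1.81 without RankCre-ki replicate 2 and 0.38 without RankCre-ki replicate 1. The paralog F2rl3, which encodes the thrombin receptor PAR4, was at 8.20, 0.0455 and 23.3 TPM in wild-type HSCs, against 33.3 and 21.4 TPM in RankCre-ki HSCs. It had a log2 fold change of 2.17 ± 1.47 (SE, limma adjusted p = 0.898) with overlapping groups. F2rl1 and F2rl2, the remaining receptors of this family, were at most 0.318 and 1.57 TPM.

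Across the 10 genes no difference passed the threshold taken from the study, which asks for an adjusted p of 0.1 or less together with a log2 fold change beyond 2 in either direction. By limma 8 of the 10 could be tested, 0 passed and 1, Selp, had an unadjusted p under 0.05, having entered the test only through the group in which it was high. Over the 13981 tested genes the share that passed was 0%. The study, with these cut-offs in its own test of fragment counts by DESeq2, reported genes both higher and lower. The 0% is that of limma on TPM and not that of the study's test. The share with an unadjusted p under 0.05 was 6.34% for higher and 0.529% for lower levels in RankCre-ki, so higher levels were more frequent among all genes. Selp was also 1 of 10 genes with both RankCre-ki libraries above all wild-type libraries, against 18.8% of the tested genes, and 0 of 10 lay below, against 3.71%. The counts of the 10 genes are thus near those of all genes. Of the 10 fold changes 6 were above and 4 below 0, with a median of 0.50 against 0.52 for all tested genes, of which 72.3% were above 0.

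**Figure D2:**
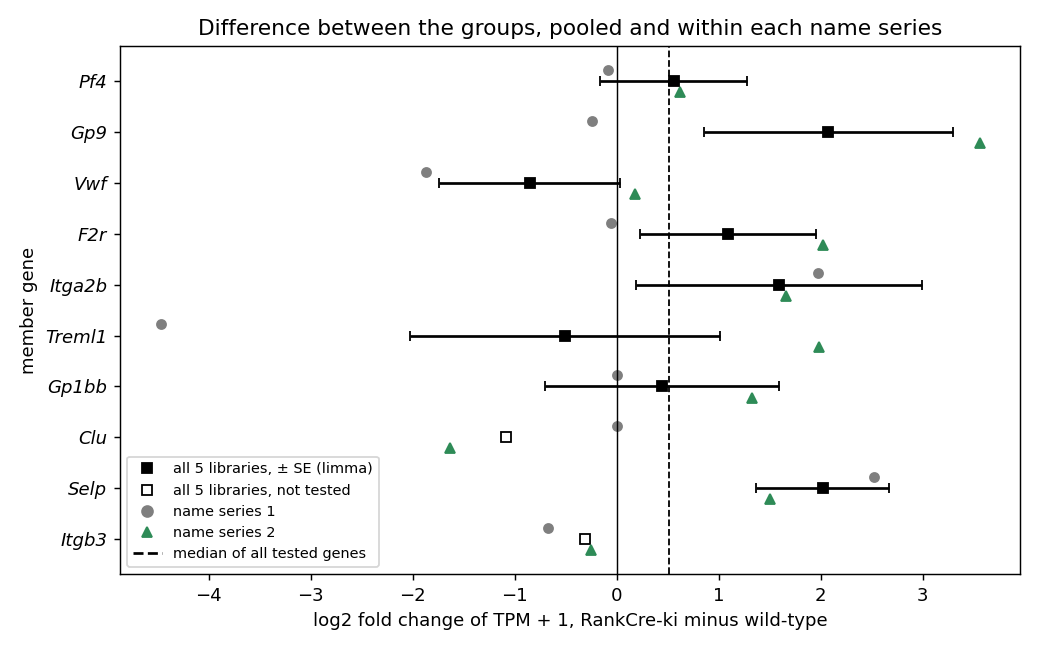
Difference between RankCre-ki and wild-type for each of the 10 genes, as log2 fold change of TPM + 1. Black squares are the fit over all 5 libraries with its standard error, open squares are genes too low to be tested, grey circles and green triangles are the differences within name series 1 and 2, and the dashed line is the median of all tested genes at 0.52. The series lie on opposite sides of 0 for Treml1, Gp9, Vwf, F2r and Pf4.

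The name series gave different pictures. Within series 1, with 1 library per group, 2 of the 10 genes were higher in RankCre-ki, 6 were lower and 2 were equal, and their median difference was −0.07 on the log2 scale against 0.53 over all tested genes. Within series 2, with 2 wild-type libraries and 1 RankCre-ki library, 8 were higher and 2 lower, with a median of 1.41 against 0.40. Of all tested genes 64.4% were higher in RankCre-ki within series 1 and 65.6% within series 2. The widest gap was that of Treml1, with a difference of −4.47 within series 1 and of 1.98 within series 2. Gp9 was at −0.24 and 3.56, F2r at −0.05 and 2.02, Pf4 at −0.08 and 0.62, and Vwf at −1.87 and 0.18. Only Itga2b and Selp were higher in both series, as were 44.5% of the tested genes. A difference between the series was not tested.

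Receptors and partner subunits of the same pathway were examined as a list of 10 genes. Fcer1g, the signalling chain of the collagen receptor, was at 37.8, 42.3 and 46.1 TPM in wild-type HSCs, against 66.4 and 82.3 TPM in RankCre-ki HSCs, without overlap (log2 fold change 0.80 ± 0.55 SE, limma adjusted p = 0.899). Gp6, which binds collagen in that receptor, was at most 0.470 TPM, and Itga2, the alpha chain of the other collagen receptor, was at most 0.0220 TPM in wild-type HSCs, against 3.02 and 0.424 TPM in RankCre-ki HSCs. Clec1b, the podoplanin receptor, was at most 0.454 TPM. Of the 10 genes 4 could be tested by limma, 0 passed the threshold and 0 had an unadjusted p under 0.05. In 5 of the 10 the RankCre-ki libraries both exceeded every wild-type library and in 0 they lay below, against 18.8% and 3.71% of all tested genes, but 3 of these 5 (Gp1ba, Itga2 and F2rl2) were too low to be tested. The count was 4 of 10 under median-ratio scaling and under quantile normalization, where 12.2% and 11.6% of all genes lay above. It was 6 or 7 of 10 when a library was left out, where 24.2% to 34.8% did. The median log2 fold change was 0.54, against 0.52 over all tested genes. Of the 10, 7 were higher in both name series, against 44.5% of tested genes. Genes without overlap above are always among those higher in both series.

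**Figure D3:**
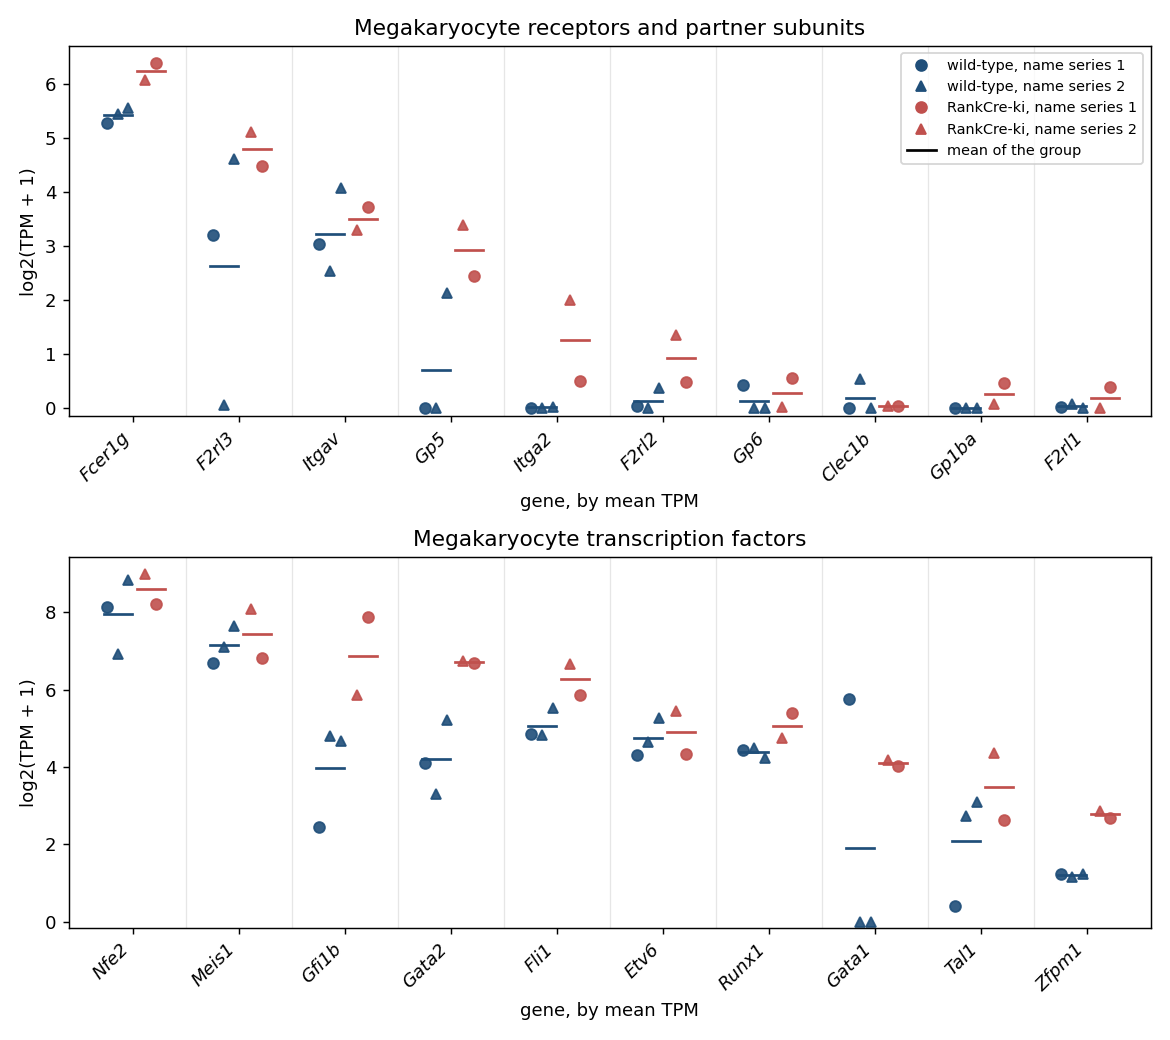
Levels of 10 receptors and partner subunits (upper panel) and of 10 transcription factors (lower panel) as log2(TPM + 1), each panel ordered by mean TPM. Blue symbols are wild-type and red symbols RankCre-ki libraries, circles are name series 1, triangles name series 2 and short lines group means on the log2 scale. Fcer1g, Gp5, Gata2, Gfi1b, Fli1, Runx1 and Zfpm1 are among the genes with both RankCre-ki libraries above all wild-type libraries.

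Transcription factors that act in megakaryocytes were examined as a list of 10 genes, all of which could be tested. Gata2, which acts in HSCs and early megakaryocytes, was at 16.4, 8.93 and 36.4 TPM in wild-type HSCs, against 106 and 102 TPM in RankCre-ki HSCs. The groups did not overlap, and the log2 fold change was 2.50 ± 0.75 (SE), with limma p-values of 0.0108 before and 0.521 after adjustment. Gfi1b, a repressor needed by megakaryocytes and erythroid cells, was at 4.44, 26.8 and 24.7 TPM in wild-type HSCs, against 57.4 and 234 TPM in RankCre-ki HSCs. It too had no overlap, a log2 fold change of 2.90 ± 0.99 (SE), and limma p-values of 0.0189 before and 0.545 after adjustment. Without RankCre-ki replicate 2, the log2 fold changes were 2.52 for Gata2 and 1.89 for Gfi1b.

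The ETS factor Fli1 was at 27.7, 27.4 and 45.3 TPM in wild-type HSCs, against 101 and 57.1 TPM in RankCre-ki HSCs. Runx1 was at 20.7, 21.5 and 18.0 TPM against 26.0 and 41.0 TPM, and Zfpm1, the GATA cofactor FOG1, at 1.38, 1.22 and 1.37 TPM against 6.33 and 5.41 TPM. In these 3 genes both RankCre-ki libraries lay above, with log2 fold changes of 1.20, 0.68 and 1.56 and limma adjusted p-values of 0.864, 0.952 and 0.903. Gata1, the main GATA factor of megakaryocytes and erythroid cells, was at 52.8 TPM in wild-type replicate 1, listed at 0 in both other wild-type libraries and present at 17.1 and 15.3 TPM in RankCre-ki HSCs. Wild-type replicate 1 was also the library with the highest Treml1 and Pf4, and it placed Gata1 among the genes with overlap. Nfe2, Tal1, Etv6 and Meis1 overlapped between the groups, with log2 fold changes of 0.63, 1.42, 0.15 and 0.31, of which those of Etv6 and Meis1 turned negative after median-ratio scaling. In all, 5 of the 10 factors had both RankCre-ki libraries above all wild-type libraries and 0 below, against 18.8% and 3.71% of all tested genes. An unadjusted limma p under 0.05 was found for 2, both higher, against 6.34% of all tested genes, and 0 passed the threshold. The 5 factors became 4 under median-ratio scaling and 3 under quantile normalization (12.2% and 11.6% of all genes). The count was 5 to 9 when a library was left out (24.2% to 34.8% of all genes), with 9 without RankCre-ki replicate 2. The median log2 fold change of the 10 factors was 1.31, against 0.52 over all tested genes. Of the 10, 9 were higher in both name series, against 44.5% of tested genes. A gene with both RankCre-ki libraries above all wild-type libraries is always higher in both series, so this count is not separate from that above.

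No gene of granules or of platelet signalling passed the threshold. Of 19 genes of granule content and secretion 14 could be tested. Both RankCre-ki libraries lay above in 4 and below in 2, against 18.8% and 3.71% of all tested genes, the median log2 fold change was −0.07, and 0 had an unadjusted limma p under 0.05. The 3 with the highest mean TPM overlapped between the groups: Srgn, the proteoglycan core of granules, at 752 to 1215 TPM in the wild-type and 1160 to 1883 TPM in RankCre-ki HSCs, the secretory SNARE Vamp8 at 771 to 957 and 597 to 784 TPM by range, and the granule membrane protein Cd63 at 518 to 793 and 451 to 608 TPM. Of 30 genes of platelet signalling and cytoskeleton 23 could be tested. Both RankCre-ki libraries lay above in 10 and below in 1, against 18.8% and 3.71% of all tested genes, and 4 genes (P2ry12, Myl9, Slc6a4 and Adra2a) were at 0 in all libraries. The 3 with the highest mean TPM were Rgs18, a regulator of G protein signalling, the G protein subunit Gng11 and the thromboxane synthase Tbxas1. Rgs18 was at 426, 895 and 553 TPM in wild-type HSCs, against 427 and 222 TPM in RankCre-ki HSCs, with overlap and a log2 fold change of −0.95 ± 0.49 (SE, limma adjusted p = 0.860). Gng11 was at 236, 266 and 194 TPM in wild-type HSCs, against 156 and 180 TPM in RankCre-ki HSCs, as the one gene of the list with both RankCre-ki libraries below, with a log2 fold change of −0.46 ± 0.42 (SE, limma adjusted p = 0.939). Tbxas1 was at 106, 196 and 213 TPM against 291 and 178 TPM, with overlap and a log2 fold change of 0.47 ± 0.51 (SE, limma adjusted p = 0.952). An unadjusted limma p under 0.05 was reached by 3 of the 30, all higher in RankCre-ki, against 6.34% of all tested genes, and these are named after their values were seen. They were the junction adhesion molecule Esam at 10.9, 9.73 and 32.4 TPM against 137 and 94.0 TPM, the integrin activator Fermt3 at 114, 17.1 and 82.9 TPM against 242 and 218 TPM, and the kinase Pik3cb at 0 in the wild-type libraries against 1.02 and 3.66 TPM. Their limma adjusted p-values were 0.521, 0.638 and 0.580. Pik3cb passed the filter for testing through the RankCre-ki libraries alone.

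The labelled cell type was checked with marker lists. Of 9 HSC genes, the list without Cd48, 7, 9 and 8 reached 1 TPM in wild-type HSCs, against 9 and 9 in the RankCre-ki libraries. Procr, a surface marker of HSCs, was at 19.1, 11.7 and 46.3 TPM in wild-type HSCs, against 94.9 and 103 TPM in RankCre-ki HSCs, without overlap (limma adjusted p = 0.546). Cd48, whose protein the sort excludes, was at 0 in every wild-type library, against 4.92 and 5.62 TPM in RankCre-ki HSCs (limma adjusted p = 0.521), and it passed the filter for testing through the RankCre-ki libraries alone. Both genes are named after their values were seen. They were the 2 of 10 HSC markers with both RankCre-ki libraries above all wild-type libraries, against 18.8% of all tested genes. Of the 10 markers 0 lay below, against 3.71%. Their log2 fold changes were above 0 in 7 and below 0 in 3, with a median of 0.52, as over all tested genes. The summed level of 10 markers of mature megakaryocytes and platelets was 63.1, 115 and 143 TPM in wild-type HSCs, against 138 and 64.3 TPM in RankCre-ki HSCs, and Mmrn1, which HSCs also express, held 62.5, 104 and 116 TPM of it in wild-type and 107 and 29.2 TPM in RankCre-ki HSCs. Of these 10 markers 4 had both RankCre-ki libraries above all wild-type libraries and 0 below, against 18.8% and 3.71% of all tested genes. They were P2rx1 and Gp5, and also Gp1ba and Itga2, which were too low to be tested. P2rx1 was at 0.129, 10.1 and 9.92 TPM in wild-type HSCs, against 15.1 and 29.2 TPM in RankCre-ki HSCs. Ppbp, Tubb1 and Gp6 were at 0 or under 1 TPM in most libraries. The exceptions were Ppbp at 14.2 TPM in wild-type replicate 3 and Tubb1 at 2.66 TPM in RankCre-ki replicate 1. Ppbp, a chemokine gene next to Pf4 on chromosome 5, was thus at 0 in the libraries with the highest Pf4.

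The summed level of 10 endothelial markers, which matter because endothelial cells also express Vwf, Selp and F2r, was 0.942, 0.0343 and 9.88 TPM in wild-type HSCs, against 0.435 and 1.95 TPM in RankCre-ki HSCs. None of them could be tested, Plvap was at 0 in all libraries and Cdh5 at most 0.0572 TPM. The sum of 10 macrophage markers was 0.0690, 12.2 and 3.23 TPM against 9.79 and 0.722 TPM, with Adgre1, C1qc, Vsig4 and Timd4 at 0 in all libraries. Both sums overlapped between the groups. The sum of the erythroid markers was 223, 164 and 139 TPM in wild-type HSCs, against 334 and 1584 TPM in RankCre-ki HSCs, over 9 genes, with Slc4a1 at 0 in all libraries. Of these 9 markers 8 could be tested and 2 lay above without overlap, against 18.8% of all tested genes. The sum of RankCre-ki replicate 2 was mostly Car1, at 674 TPM there and at 0 in RankCre-ki replicate 1, and Hbb-bt, at 632 TPM. Log2 fold changes were above 0 in 7 of the 9 markers and below 0 in 1. Their median was 2.26, against 0.52 over all tested genes. The 1 lower marker, Hba-a1, was at 31.6, 0 and 3.78 TPM in wild-type HSCs, against 1.58 and 2.87 TPM in RankCre-ki HSCs. Erythroid cells share Gata1, Gata2, Gfi1b, Tal1 and Zfpm1 with megakaryocytes, and the part of the erythroid transcripts in the levels of these factors was not tested.

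**Figure D4:**
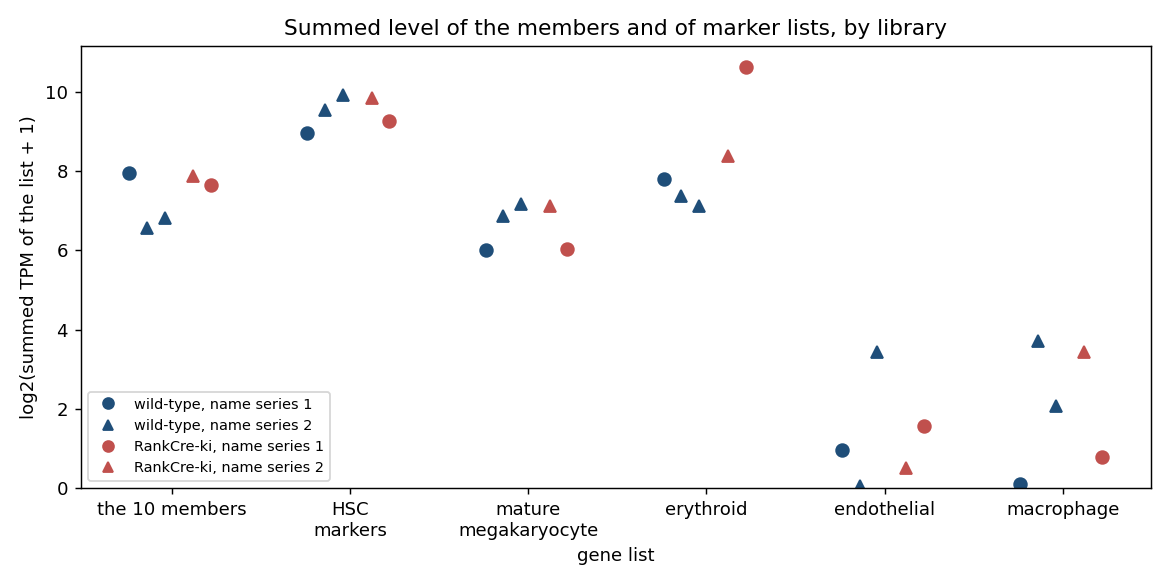
Summed level of the 10 platelet and megakaryocyte genes and of marker lists of 10 genes each, or 9 for the erythroid list, as log2(summed TPM + 1) by library. Blue symbols are wild-type and red symbols RankCre-ki libraries, circles are name series 1 and triangles name series 2. The erythroid sum is higher in both RankCre-ki libraries, at 334 and 1584 TPM, than in any wild-type library, while all other sums overlap.

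The genes whose levels followed the 3 most abundant of the 10 most closely were found by the root mean square difference of log2(TPM + 1) over the 5 libraries, among all tested genes. For Pf4 these were Eif1ax, Ccl4 and Tomm7, with differences of 0.22, 0.28 and 0.29. For Gp9 they were Sec24c, Ampd2 and 2810403D21Rik, at 0.34, 0.47 and 0.50, and for Vwf they were Spin1, Utp15 and Atg5, at 0.17, 0.24 and 0.29. None of these genes is on the platelet lists used here. With 5 libraries and 13981 candidates, such likeness describes these libraries and no more.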

How the data were processed

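HSCs were sorted into pools, and their poly(A) RNA was turned into full-length cDNA by template switching, which was amplified and tagmented. The authors deposited TPM per gene, and the software behind these values is not given in the sources used here. For their own test they aligned reads to mm10 with gsnap and counted with featureCounts (2.0.1 in the submitters' processing notes). TPM holds no record of depth, so no counting error can be given. The methods name different tagmentation kits, in sets composed like the name series. That the series are these sets is inferred.

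Each library summed to 1000000 TPM. After removal of 92 spike-in rows, 55335 genes remained, and the 13981 that reached 1 TPM in 2 or more libraries were tested. The test on log2(TPM + 1) was that of limma 3.58.1, run in R 4.3.3 (lmFit, eBayes with trend, two-sided, 5 libraries, no covariate), with Benjamini-Hochberg adjustment over all tested genes. A gene passed where its adjusted p was 0.1 or less and its log2 fold change lay beyond 2 in either direction. The code was checked on simulated data, where recovery of changed genes was required only at a spread smaller than that of these libraries. How often the test finds a change at the real spread is not given here. Positions came from GENCODE M21 (GRCm38), in which 99.7% of identifiers were found, and promoters from RefSeq.

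The 10 genes and all lists were chosen with earlier results of these data known. The text names the 10 genes, all receptor partners and transcription factors, and from the granule and signalling lists the 3 of highest mean TPM. Some genes of the lists are not reported here. Other names are marked, or are given as cell type markers. Alternatives were other filters, a pseudocount of 0.1 TPM, other scalings, no trend, a block, name series as a covariate and leaving out each library.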

Additional observations from a re-analysis of the deposited data

How the results depend on the processing

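None of the 10 genes passed the threshold in the main analysis or under any alternative, over 16 settings in all. Selp alone was without overlap in the main analysis. Under median-ratio scaling and under quantile normalization 2 genes were, Selp (higher) and Vwf (lower), where 12.2% and 11.6% of tested genes lay above. When a library was left out 1 to 5 genes were, 5 without wild-type replicate 1 and 5 without RankCre-ki replicate 2. In those settings 24.2% to 34.8% of tested genes lay above. Vwf, Clu and Itgb3 lay below wherever they were without overlap. The share of all genes below is given for the main analysis alone. The count of all genes that passed was 0 to 17 when a library was left out, 17 without RankCre-ki replicate 1 and 8 without RankCre-ki replicate 2, where the lone library is assumed to vary like the wild-type libraries. With the replicate number as a replicate block 1 gene passed, Gm28437, and the count at an unadjusted p under 0.05 was 565 against 960. The labels give no pairing, and deviations of same-numbered libraries correlated at −0.38 and −0.20, so the libraries share only a number. Leaving out 1 library changed the sign of Vwf (−1.90 to 0.19), Gp1bb (−0.86 to 1.75), Treml1 (−1.51 to 0.97), Itgav (−0.052 to 0.72), Etv6 (−0.40 to 0.70) and Meis1 (−0.32 to 0.94). Among genes too low to be tested, the sign also changed for Itgb3 (0.0048 without wild-type replicate 1), Clec1b (0.033 without wild-type replicate 2), Gp6 (−0.12) and F2rl1 (−0.036), both without RankCre-ki replicate 2. Median-ratio scaling turned Itgav (−0.16), Etv6 (−0.34) and Meis1 (−0.20), and quantile normalization Itgav (−0.45) and Etv6 (−0.20). These scalings moved the median of all genes from 0.52 to 0.16 and −0.09, and the share of higher genes at an unadjusted p under 0.05 from 92.3% to 65.9% and 69.0%. That count of 960 was 511 with a filter of 5 TPM, 616 after quantile normalization and 146 to 1562 when a library was left out. The causes were not tested.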
